A study of Mus musculus with 9 samples.

Results

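The genes described here are 10 transcripts that astrocytes raise when they become reactive: Gfap, Vim, Serpina3n, Lcn2, Cd44, Osmr, Cp, S1pr3, Timp1 and Steap4. They were chosen by symbol, as widely used markers of reactive astrocytes, from the 24411 genes listed for each mouse, and all 10 were found and passed the filter on low values (an average rlog of log2(10) or more), as 14867 genes did. The choice was made with earlier results of these data known. It left out 3 other genes raised in most reactive astrocytes, which are described further on. Total RNA of the hippocampus was sequenced from 9 male C57BL/6J mice labelled wild type and 10 weeks old, 3 in each of 3 groups. CUG10 mice carried AAV9-CUG10 and received vehicle, CUG300 vehicle mice carried AAV9-CUG300 and received vehicle, and CUG300 CWG-cPIP mice carried AAV9-CUG300 and received CWG-cPIP, a cyclic pyrrole-imidazole polyamide made to bind CAG and CTG repeat DNA. The virus, an adeno-associated virus, placed either 10 or 300 CTG units downstream of the Egfp coding sequence, in its 3′-UTR, and virus and compound or vehicle were injected together into the CA1 field on both sides, so that all groups share the needle, the capsid and Egfp, and none was left without virus. Tissue was taken on day 10. The cell type that expressed the transgene, and its dose in each mouse, were not measured here.

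Astrocytes are the glial cells that take up glutamate, buffer potassium and cover the vessels and synapses of the hippocampus. After injury, infection or inflammation they enlarge, build up intermediate filaments and secrete acute-phase and matrix proteins, a state called reactive. Cytokines that signal through gp130 and STAT3, and IL-1, TNF and C1q from microglia, are well-known inducers of this state. None of the 10 genes is restricted to astrocytes: Vim, Cd44, Osmr and Timp1 are also expressed by vessel-associated cells, fibroblasts or blood-derived cells.

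Since the members moved together, the 250 bases before their start sites were searched for 4 motifs of factors known to act in reactive glia. The windows come from RefSeq on GRCm38.p6, where all 10 members were matched and Cp has more than 1 start. On either strand, the STAT motif TTCNNNGAA was found before 1 member (Steap4) and in 7.02% of all 32851 windows. The AP-1 motif TGANTCA was found before 1 member (Cp) and in 6.75% of all windows, and the NF-kappaB motif GGGNNTTCC before 3 members (Gfap, Vim and Steap4) and in 4.98% of them. The interferon-stimulated response element (ISRE) was in none of the member windows and in 2.98% of all windows. No 2 of the matches overlap, and a match is a description, not a binding site. The matches outside annotated exons are shown with 10 bases on each side and the motif in capitals, 5′ to 3′ on the strand of the gene. They lie at chr11:102897333-102897361 (minus strand, in an intron of another Gfap transcript in GENCODE M21), chr3:19956867-19956893 (plus strand, before Cp), and chr5:7960346-7960374 and chr5:7960236-7960264 (both plus strand, before Steap4):
Gfap, NF-kappaB: ttaccagaaaGGGGGTTCCttgatcaatg
Cp, AP-1: atgacatattTGATTCAtttttccttg
Steap4, STAT: ggttgaactcTTCCCGGAAactttgcttc
Steap4, NF-kappaB: caaaggttccGGAAAACCCcttttatacc

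The windows of Cd44 and Timp1, the members with the largest differences between CUG300 vehicle and CUG10 mice, held none of the 4 motifs. They are shown whole, in lower case since there is nothing to mark. They lie at chr2:102901666-102901915 (minus strand, directly before Cd44) and chrX:20869916-20870165 (plus strand, directly before Timp1 and inside Syn1, a synaptic vesicle gene that runs the other way):
Cd44: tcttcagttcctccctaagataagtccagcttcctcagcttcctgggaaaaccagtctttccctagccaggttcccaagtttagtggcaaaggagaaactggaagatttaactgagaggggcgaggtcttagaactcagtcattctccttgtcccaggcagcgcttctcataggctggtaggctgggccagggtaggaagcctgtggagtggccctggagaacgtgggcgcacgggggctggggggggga
Timp1: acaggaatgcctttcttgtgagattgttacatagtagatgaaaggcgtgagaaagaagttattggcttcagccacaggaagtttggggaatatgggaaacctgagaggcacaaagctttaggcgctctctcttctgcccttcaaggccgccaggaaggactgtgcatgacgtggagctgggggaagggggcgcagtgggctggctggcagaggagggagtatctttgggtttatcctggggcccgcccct

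To assess the effect of the expanded repeat, CUG300 vehicle mice were compared with CUG10 mice. All 10 reactive astrocyte genes rose in CUG300 mice, and for each of them every CUG300 vehicle mouse stood above every CUG10 mouse. The differences ran from 0.99 for Steap4 to 2.88 for Cd44 on the log2 scale of the deposited rlog values, with a median of 1.89 against −0.01 over all genes tested. Adjusted p-values of limma after Benjamini and Hochberg lay between 0.0207 and 0.0449. They come from the fit over all 9 mice, which counts the spread of the treated mice too. With only the 2 compared groups fitted, the members' adjusted p-values of limma lay between 8.8e-05 and 0.0196. In the fit over all 9 mice, 7.37% of all genes tested were called higher at an adjusted p under 0.05 and 3.34% were called lower. Of all genes tested, 18.2% stood higher in every CUG300 vehicle mouse than in every CUG10 mouse. Rlog is a regularized logarithm of normalized counts, which draws noisy low genes toward their mean, so that a fold change of Lcn2 or Steap4, the lowest members, is understated. In whole tissue, more reactive astrocytes, more RNA per astrocyte and RNA from other cells that express these genes cannot be told apart.

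Gfap, which encodes an intermediate filament protein of astrocytes (chr11:102887336-102900912, minus strand), had values of 13.66, 14.34 and 13.98 in CUG10 mice 1 to 3, of 15.24, 15.04 and 15.34 in CUG300 vehicle mice and of 14.99, 14.24 and 15.18 in CUG300 CWG-cPIP mice. The vehicle groups did not overlap, and treated mouse 2 lay among the CUG10 mice while mouse 3 lay among the CUG300 vehicle mice. Gfap rose by 1.21 (SE 0.25, adjusted p = 0.0267), or 2.31-fold, in CUG300 vehicle against CUG10 mice.

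Vim encodes vimentin, the filament partner of GFAP in reactive astrocytes (chr2:13573927-13582826, plus strand). Its values were 11.11, 11.60 and 11.06 in CUG10 mice, 12.92, 12.59 and 13.34 in CUG300 vehicle mice and 12.13, 11.34 and 12.88 in treated mice. The lowest CUG300 vehicle mouse was above the highest CUG10 mouse, and the treated mice reached from one group to the other. Vim rose by 1.70 (SE 0.36, adjusted p = 0.0267), or 3.24-fold. Of the 5 glial filament genes listed, Gfap and Vim were the 2 called. Nes, the nestin gene of immature and reactive glia, was 1.15 higher without passing the test (adjusted p = 0.0646).

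Among the secreted members, Serpina3n, an inhibitor of serine proteases (chr12:104406729-104414329, plus strand), stood at 10.04, 10.77 and 10.23 in CUG10 mice, at 11.76, 12.04 and 12.80 in CUG300 vehicle mice and at 11.51, 10.46 and 12.29 in treated mice. Vehicle groups were apart, and treated mouse 2 again lay within the CUG10 range. Serpina3n rose by 1.85 (SE 0.44, adjusted p = 0.0341). It belongs to a cluster of near-identical genes, between which reads can be split. Of 11 Serpina3 genes listed, 4 passed the filter and all 4 rose, Serpina3g by 1.84 (adjusted p = 0.0326), so the share that is Serpina3n itself is uncertain. Serpina3a and Serpina3b stood at 0 in every mouse.

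Lcn2 encodes lipocalin 2, which binds bacterial siderophores (chr2:32384633-32388252, minus strand), and is low in resting brain. Values of 4.78, 5.10 and 4.69 in CUG10 mice compared with 7.06, 6.58 and 6.67 in CUG300 vehicle mice and 6.54, 5.42 and 7.04 in treated mice. Every CUG300 mouse, treated or not, was above every CUG10 mouse. Lcn2 rose by 1.92 (SE 0.36, adjusted p = 0.0227), or 3.78-fold, in CUG300 vehicle mice.

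Timp1, an inhibitor of matrix metalloproteinases (chrX:20870166-20874735, plus strand), had 5.51, 6.02 and 5.64 in CUG10 mice, 8.76, 7.85 and 9.08 in CUG300 vehicle mice and 7.34, 5.59 and 8.95 in treated mice. Treated mice spread over more than the whole gap between the vehicle groups, with mouse 2 below the CUG10 mean. Timp1 rose by 2.84 (SE 0.71, adjusted p = 0.0389), or 7.15-fold. The gene lies inside Syn1 on the other strand, with 0 shared exonic bases in GENCODE M21. The study's methods name a directional library kit, but whether strand was used in counting is not given in the sources used here. Of 12 metalloproteinase and TIMP genes tested, 4 rose, among them Timp1 and Mmp3, the stromelysin gene (1.67, adjusted p = 0.0344). Timp2 differed by −0.23 (adjusted p = 0.239).

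Cell surface members include Cd44, a receptor for hyaluronan (chr2:102811141-102901665, minus strand). It stood at 6.64, 7.37 and 7.07 in CUG10 mice, at 9.71, 9.52 and 10.49 in CUG300 vehicle mice and at 8.98, 7.48 and 9.84 in treated mice. Treated mouse 2 was only just above the CUG10 range, and mouse 3 was inside the CUG300 vehicle range. Cd44 rose by 2.88 (SE 0.53, adjusted p = 0.0222), or 7.37-fold. Among its ligands and the enzymes of hyaluronan, 1 of 8 rose, the hyaluronan synthase Has2 (1.27, adjusted p = 0.0374). Spp1, osteopontin, was 1.24 higher (adjusted p = 0.137), and Has1 was −0.23 apart (adjusted p = 0.12).

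Osmr, the receptor chain for oncostatin M that pairs with gp130 (chr15:6813577-6874969, minus strand), read 7.09, 7.31 and 7.13 in CUG10 mice, 9.12, 9.31 and 9.17 in CUG300 vehicle mice and 9.04, 7.90 and 9.19 in treated mice. The vehicle mice were tight, and 2 of 3 treated mice were close to the CUG300 vehicle values. Osmr rose by 2.02 (SE 0.29, adjusted p = 0.0207), or 4.07-fold, and was the 1 chain called of 6 gp130 receptor chains. Il6st, gp130 itself, differed by 0.07 (adjusted p = 0.813) and Il6ra by 0.59 (adjusted p = 0.144). Of the 7 gp130 ligands, 2 rose, Il6 by 1.80 (adjusted p = 0.0281) and Clcf1 by 1.37 (adjusted p = 0.0281), while Osm was 0.65 higher (adjusted p = 0.0729). Of 10 transducers and feedback genes, 6 rose, with Socs3, a feedback inhibitor, from a mean of 6.73 to 9.43 (adjusted p = 0.0328), Socs1 by 2.52 (adjusted p = 0.0266) and Jak2 by 0.69 (adjusted p = 0.0339). Jak1 differed by 0.06 (adjusted p = 0.772).

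S1pr3, a receptor for sphingosine-1-phosphate (chr13:51408639-51422797, plus strand), read 7.85, 8.10 and 7.96 in CUG10 mice, 9.78, 9.89 and 10.59 in CUG300 vehicle mice and 9.43, 8.29 and 9.91 in treated mice. All treated mice were above the CUG10 mice, and mouse 3 reached the CUG300 vehicle range. S1pr3 rose by 2.12 (SE 0.37, adjusted p = 0.0222), or 4.33-fold. An antisense lincRNA shares 45 of its exonic bases. Of 10 pathway genes tested, 3 rose, the receptors S1pr3 and S1pr2 (0.95, adjusted p = 0.0382) and the lyase Sgpl1. S1pr1 differed by −0.04 (adjusted p = 0.906), and the kinase gene Sphk1 was 1.43 higher without passing (adjusted p = 0.108).

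Cp and Steap4 handle metals: ceruloplasmin oxidizes iron and carries copper, and STEAP4 reduces both metals. Cp (chr3:19957054-20009145, plus strand) had 8.67, 8.21 and 8.18 in CUG10 mice, 9.28, 9.74 and 9.51 in CUG300 vehicle mice and 9.17, 9.02 and 9.66 in treated mice. The treated mice were all above the CUG10 mice and mouse 3 was within the CUG300 vehicle range. Cp rose by 1.16 (SE 0.20, adjusted p = 0.0222). Its 3′ end meets Hps3 on the other strand, which shares 108 exonic bases, or 1.13% of its own.

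Steap4 (chr5:7960457-7982213, plus strand) stood at 4.38, 4.52 and 5.11 in CUG10 mice, at 5.74, 5.78 and 5.45 in CUG300 vehicle mice and at 5.31, 4.77 and 5.72 in treated mice. The gap between the vehicle groups was the narrowest of the members, set by CUG10 mouse 3. Steap4 rose by 0.99 (SE 0.26, adjusted p = 0.0449), and it was not called with quantile scaling or with no filter (adjusted p = 0.0699 and 0.0565). Of 14 iron and copper genes tested, 3 rose, the members Cp and Steap4 among them, and 1 fell. The heme oxygenase gene Hmox1 rose by 2.35 (adjusted p = 0.0235), and Slc22a17, the lipocalin 2 receptor, fell by 0.40 (adjusted p = 0.0361).

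**Figure D1:**
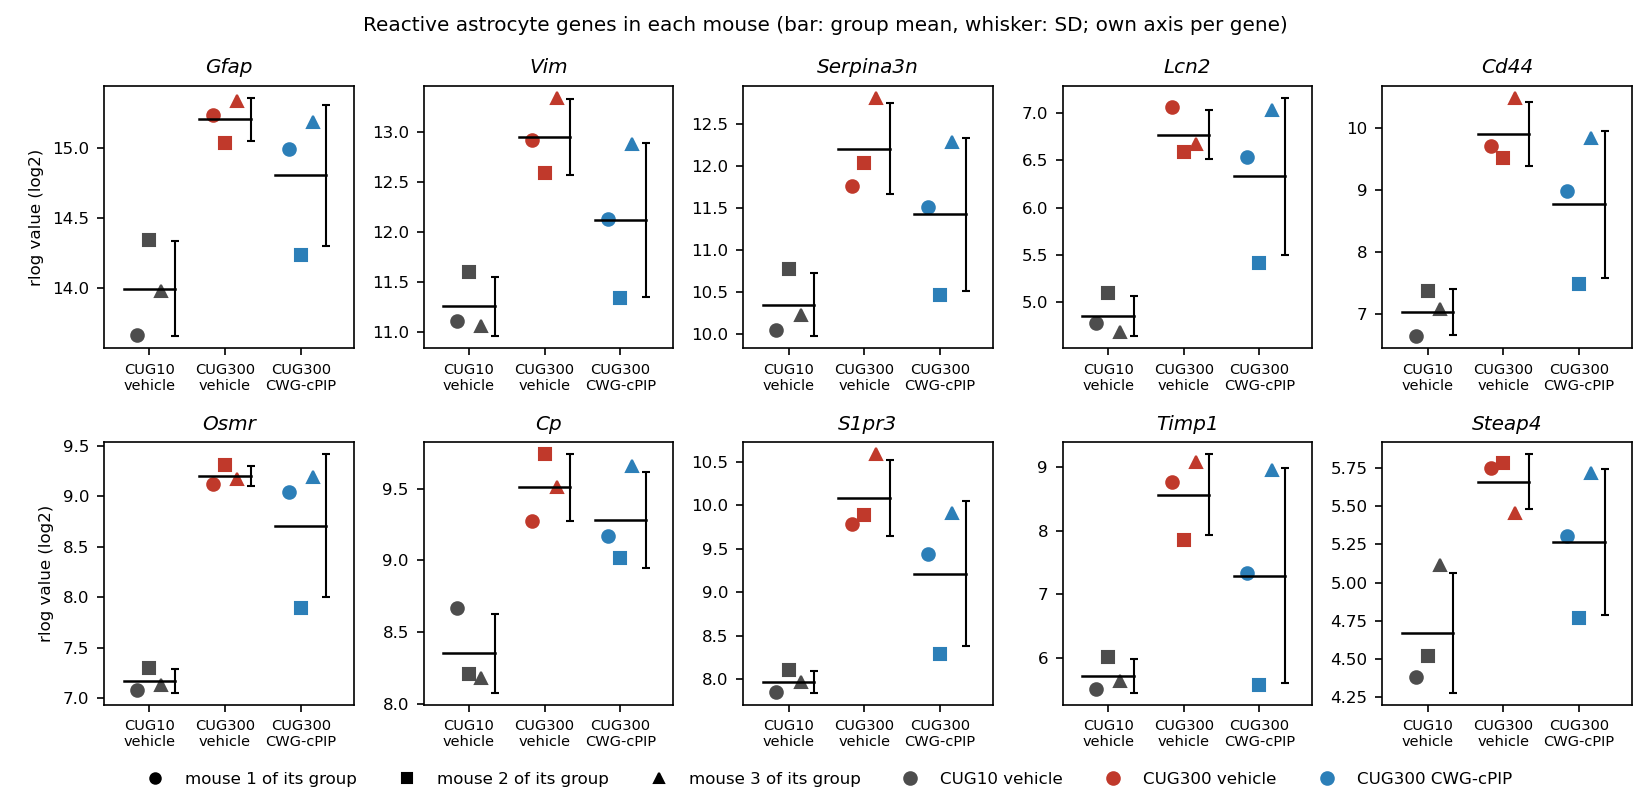
Rlog value on the log2 scale (vertical axis, own range per gene) of the 10 reactive astrocyte genes in each mouse, by group; bars are group means, whiskers SD, symbols mouse numbers. In each panel the 3 CUG300 vehicle mice lie above the 3 CUG10 mice, and treated mouse 2 is the lowest and mouse 3 the highest treated mouse.

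These calls depend on the mice included. When CUG10 mouse 1, 2 or 3 was left out, or CUG300 vehicle mouse 3, 0 of the 10 members were called, with adjusted p-values of limma from 0.0614 to 0.137. Without treated mouse 1 the 5 called were Lcn2, Cd44, Osmr, Cp and S1pr3. All 10 differences stayed positive whichever mouse was left out, from 0.84 to 3.19. With the mean of the choroid plexus markers as a covariate, 0 members (adjusted p = 0.0979 to 0.182) and 1 gene of all tested were called. All 10 differences stayed positive, from 0.74 to 2.71 with a median of 1.85.

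To assess the effect of the compound, CUG300 CWG-cPIP mice were compared with CUG300 vehicle mice. All 10 members had lower means with CWG-cPIP, by −0.23 for Cp to −1.27 for Timp1, but 0 passed the test, with adjusted p-values of limma from 0.483 to 0.580. Of all genes, 0% were called in this comparison. These values rest largely on treated mouse 2. Without it Timp1 differed by −0.42, Cd44 by −0.50, Vim by −0.44, Serpina3n by −0.30, Gfap by −0.12 and Osmr by −0.09, and Lcn2 by 0.014. Without treated mouse 3, in contrast, Timp1 differed by −2.10. At an unadjusted p under 0.05, 2 members were lower, Vim (−0.83, 95% interval −1.64 to −0.03) and S1pr3 (−0.87, −1.71 to −0.03), beside 3.60% of all genes lower at that level. No member was lower in every treated mouse, as 3.50% of all genes were. The interval of Cd44 ran from −2.33 to 0.05 and that of Gfap from −0.98 to 0.18, so these data leave room for no difference and for a sizeable one.

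Compared with CUG10 mice, the treated mice had higher means of all 10 members, from 0.59 for Steap4 to 1.74 for Cd44, and 0 were called (adjusted p = 0.119 to 0.375). Again 0% of all genes passed. At an unadjusted p under 0.05, 9 members were higher, all but Timp1, beside 8.12% of all genes. Lcn2, Cd44, Osmr, Cp and S1pr3 were higher in every treated mouse, 5 of 10 beside 13.4% of all genes. Both treated comparisons share samples with the first one, so their values are given side by side and not as separate support. Without treated mouse 2, 8 members were called higher than in CUG10 mice, all but Vim and Steap4, and 567 genes in all.

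**Figure D2:**
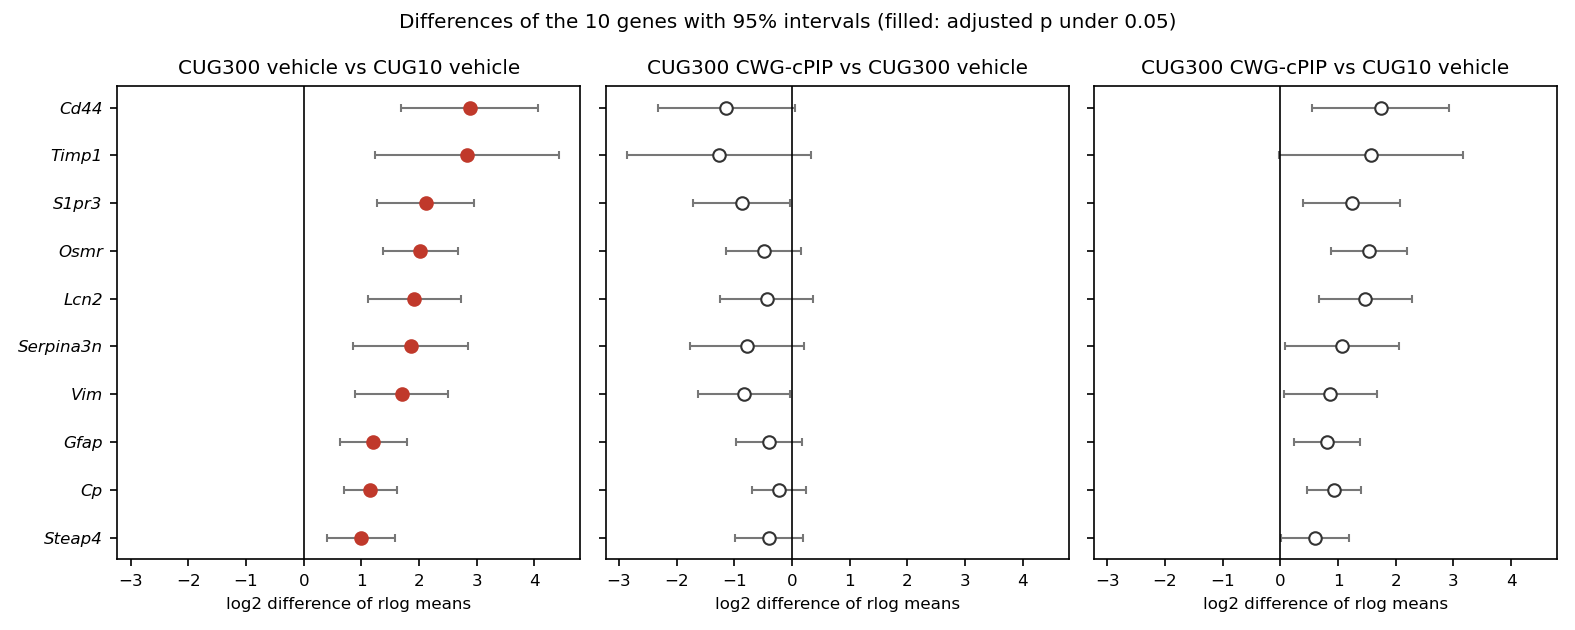
Log2 difference of rlog means (horizontal axis) with 95% intervals of limma for the 10 genes in the 3 comparisons; filled points passed an adjusted p of 0.05. All 10 points are filled and above 0 for CUG300 vehicle against CUG10, and none is filled in the other 2 panels.

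In the reactive astrocyte genes, the treated mice differed among themselves more than the vehicle mice did. The median SD of the members was 0.80 in treated mice, 0.32 in CUG300 vehicle mice and 0.29 in CUG10 mice, and over all genes tested it was 0.14, 0.22 and 0.10, highest in the CUG300 vehicle mice. Treated mouse 2 was the lowest and treated mouse 3 the highest of the 3 for all 10 members. The order was not particular to them. In treated mice 1 to 3 the gp130 ligands had means of 4.63, 4.24 and 5.12. The 3 other genes raised in most reactive astrocytes had means of 8.85, 7.77 and 9.57, and the median over all genes tested was 8.49, 8.46 and 8.53. Neuron markers, described further on, had the reverse order (12.85, 12.93 and 12.57). On a scale with the CUG10 mean at 0 and the CUG300 vehicle mean at 1, the median member stood at 0.685 in treated mouse 1, at 0.155 in mouse 2 and at 1.02 in mouse 3. Positions ran from 0.516 (Vim) to 0.920 (Osmr) in mouse 1, from −0.0494 (Timp1) to 0.575 (Cp) in mouse 2 and from 0.916 (S1pr3) to 1.14 (Timp1) in mouse 3. This order over genes describes 3 mice, and members of one mouse are not independent of each other.

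**Figure D3:**
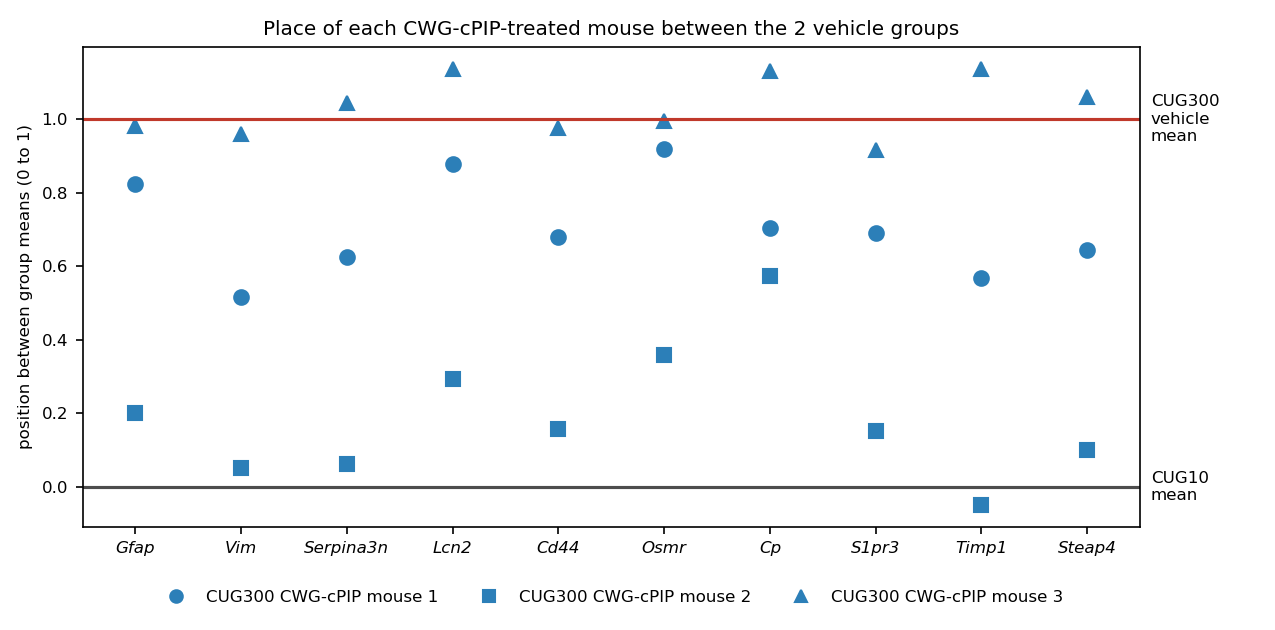
Position of each CWG-cPIP-treated mouse (symbols) between the CUG10 mean (0) and the CUG300 vehicle mean (1) for each gene. Mouse 3 lies between 0.916 and 1.14, mouse 1 between 0.516 and 0.920 and mouse 2 between −0.0494 and 0.575.

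To relate Gfap to other astrocyte transcripts, the mean of 14 homeostatic astrocyte genes was subtracted in each mouse. The log2 ratio was 1.94, 2.73 and 2.38 in CUG10 mice, 3.79, 3.38 and 4.15 in CUG300 vehicle mice and 3.09, 2.13 and 3.74 in treated mice. The vehicle groups did not overlap, and the treated mice spread over both. The ratio was 1.42 higher in CUG300 vehicle than in CUG10 mice (exact two-sided permutation test, p = 0.1, the smallest that 3 against 3 allows, adjusted over 3 comparisons 0.3). It differed by −0.79 with CWG-cPIP against vehicle (exact p = 0.2) and by 0.64 against CUG10 mice (exact p = 0.3), each 0.3 when adjusted. Gfap alone differed by 1.21 in CUG300 vehicle against CUG10 mice and by −0.40 with CWG-cPIP against vehicle. The rest of those ratio differences is movement of the homeostatic genes. Their median difference was −0.37 (11 of 14 lower) in the former comparison and 0.37 (12 of 14 higher) in the latter. On this ratio the other members had higher means in CUG300 vehicle than in CUG10 mice too, from −6.98 to −5.77 for Steap4 and from −4.62 to −1.52 for Cd44.

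Of the 14 homeostatic genes, 1 rose, the water channel gene Aqp4 (0.91, adjusted p = 0.0228), and the list median was −0.37. Aldh1l1, an enzyme of folate metabolism, was 0.44 higher without passing (adjusted p = 0.0835), and the glutamate transporter gene Slc1a2 differed by −0.85 (adjusted p = 0.128). Aqp4 stayed near its CUG300 vehicle level with CWG-cPIP (a difference of 0.05, adjusted p = 0.891). Of 3 other genes raised in most reactive astrocytes, 1 rose, the chemokine gene Cxcl10, by 4.24 (adjusted p = 0.0213), and Hspb1 was 1.25 higher (adjusted p = 0.109).

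In the 2 panels that have been used to sort reactive astrocytes, genes linked to inflammation (A1) and genes linked to ischemia (A2), genes rose in both. Of 11 A1 genes, 8 rose and 1 fell, with a median of 2.34, against 6 of 12 A2 genes that rose, with a median of 1.26. H2-T23 rose by 2.74 (adjusted p = 0.0222), Serping1, the C1 inhibitor gene, by 2.39 (adjusted p = 0.0207), and the interferon-induced GTPase genes Iigp1 and Gbp2 by 3.72 and 3.42 (adjusted p = 0.0207 for each). Amigo2 fell by 0.81 (adjusted p = 0.0464). Among A2 genes Tgm1, a transglutaminase, rose by 3.40 (adjusted p = 0.0246) and Ptx3, a pentraxin, by 3.21 (adjusted p = 0.0218). The panels were not tested against each other. The tissue was taken whole, and the part of cells other than astrocytes in the panels' differences was not tested. With CWG-cPIP against vehicle, limma called 0 genes of either panel. At an unadjusted p under 0.05 it had 2 A1 and 3 A2 genes lower, beside 3.60% of all genes. It had 1 A1 gene higher, beside 5.23% of all genes higher at that level.

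**Figure D4:**
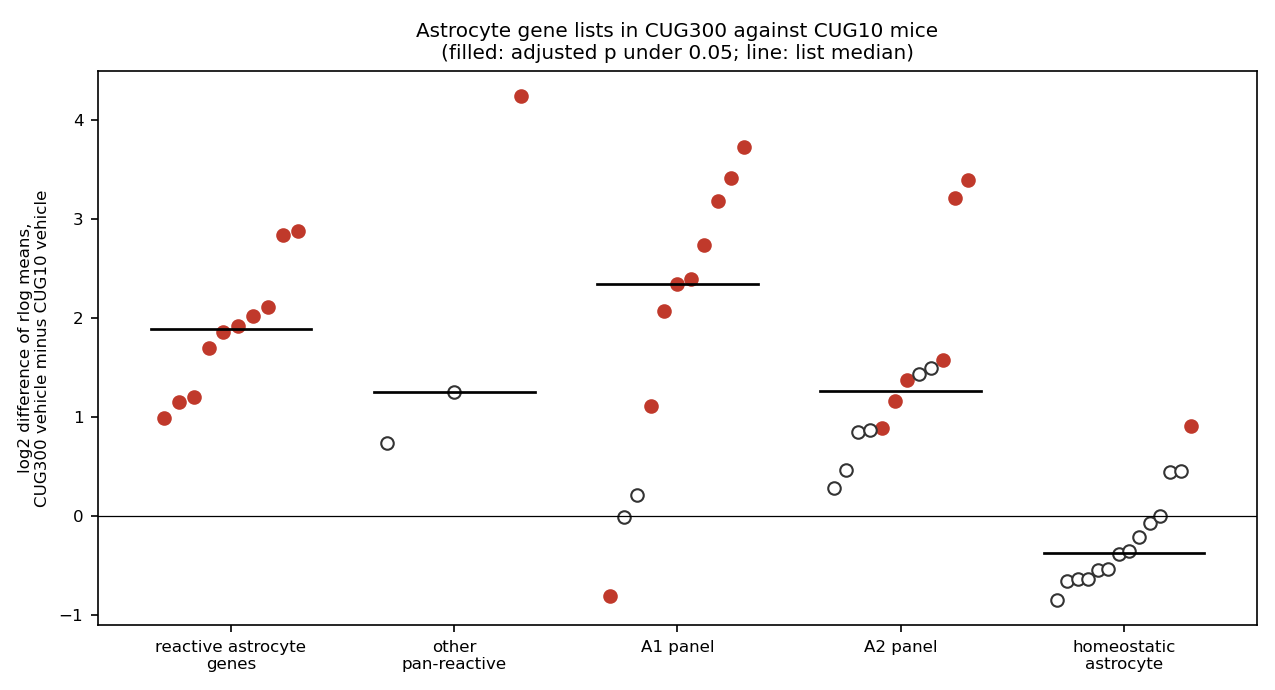
Log2 difference between CUG300 vehicle and CUG10 mice (vertical axis) for each gene of 5 astrocyte lists; filled points passed an adjusted p of 0.05 and lines are list medians. The 10 reactive genes lie between 0.99 and 2.88 and the homeostatic list has a median of −0.37.

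Of 6 microglial inducers of astrocyte reactivity, 4 rose, Tnf by 1.58 (adjusted p = 0.0314), C1qa, C1qb and C1qc, while Il1a was 0.37 higher (adjusted p = 0.0992) and Il1b 1.55 higher (adjusted p = 0.0634). Of their 4 receptors, 2 rose, Tnfrsf1b by 2.10 (adjusted p = 0.0328) and Tnfrsf1a by 1.43 (adjusted p = 0.0246). Il1r1 and Il1rap differed by 0.32 and 0.31 (adjusted p = 0.446 and 0.0811).

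By the root mean square difference of values centred on their mean over the 9 mice, the genes most like Gfap were C1qc (0.111), C1qb (0.120), Ncf1 (0.129), Nod1 (0.135) and Spint1 (0.138). Those most like Serpina3n were Zfp36 (0.113), Itgb2 (0.130), Fcgr2b (0.132), Il21r (0.132) and Nfkb2 (0.132). The measure is on the log2 scale, compares profiles over the same 9 mice and carries no test.

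Markers of other cells were read in the same mice, since the hippocampus was taken whole. Hippocampal markers were measured in every group, with Wfs1, a CA1 gene, at group means of 10.89 to 11.23. Monocyte and border macrophage markers rose in 6 of 10 genes, with Ccr2 up by 2.82 (adjusted p = 0.0207), Ly6c2 by 4.52 (adjusted p = 0.0213) and Plac8 by 4.38 (adjusted p = 0.0222), and their mean per mouse was 5.01 to 5.28 in CUG10, 6.96 to 7.34 in CUG300 vehicle and 5.68 to 7.11 in treated mice. Within the treated group it was lowest in mouse 2 and highest in mouse 3, the same order as the reactive astrocyte genes. Mrc1, Cd163, Lyve1 and Pf4, which mark border macrophages, were not among the 6 genes of this list that rose. Microglia markers rose in 2 of 9 genes, Tmem119 by 0.77 (adjusted p = 0.0265) and Olfml3 by 0.95 (adjusted p = 0.0218), and P2ry12 differed by −0.34 (adjusted p = 0.4). The 9 neutrophil markers in the files did not pass the filter, and their highest value in any mouse was 2.11 for Ltf, while S100a8 reached 1.19. Neuron markers fell in 1 of 8 genes, Syt1, by 0.51 (adjusted p = 0.043); Slc17a7 was −0.62 apart (adjusted p = 0.0512), Snap25 −0.42 and Rbfox3 −0.24. Of 6 hippocampal neuron markers 1 fell, Fibcd1, by 0.80 (adjusted p = 0.0241); Prox1, Wfs1 and Zbtb20 differed by 0.12, −0.02 and 0.31. Oligodendrocyte markers had 0 called of 6 (Mbp −0.62, Mobp −0.70). Fibroblast markers rose in 2 of 8, Dcn by 1.69 and Lum by 1.28, with Col1a1 and Col1a2 at 0.29 and 0.65. Endothelial markers rose in 1 of 8, Ly6c1 by 1.05, with Cldn5 and Pecam1 at 0.45 and 0.69. Mural markers had 0 called of 9 (Pdgfrb 0.16, Rgs5 −0.19, Cspg4 −0.71, Vtn 0.70). The part of these cells in the members' differences was not tested.

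Choroid plexus markers separate the samples in another way. Their mean was 6.09, 7.55 and 8.86 in CUG10 mice, 9.22, 8.04 and 8.54 in CUG300 vehicle mice and 6.36, 6.35 and 6.36 in treated mice, and Ttr, transthyretin, reached from 9.78 to 14.74 within the CUG10 group. None of the 10 was called in CUG300 vehicle against CUG10 mice (Ttr 2.26, Kl 0.57, Kcne2 1.29). With CWG-cPIP, 9 of 10 were lower in every treated mouse than in every CUG300 vehicle mouse, beside 3.50% of all genes. None of the 10 passed the adjusted test of limma between these 2 groups (adjusted p = 0.483 to 0.490). In CUG300 vehicle against CUG10 mice, ependymal markers had 0 of 6 called (Foxj1 0.34, Ccdc153 −0.27, Pifo 0.38). With CWG-cPIP against vehicle all 6 were lower at an unadjusted p under 0.05, beside 3.60% of all genes. Their median difference was −0.95, and 0 passed the adjusted test. The treated mice were alike in the mean of the choroid plexus list, while single genes of it differed among them, as Otx2 did with 6.42, 7.21 and 5.87.

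**Figure D5:**
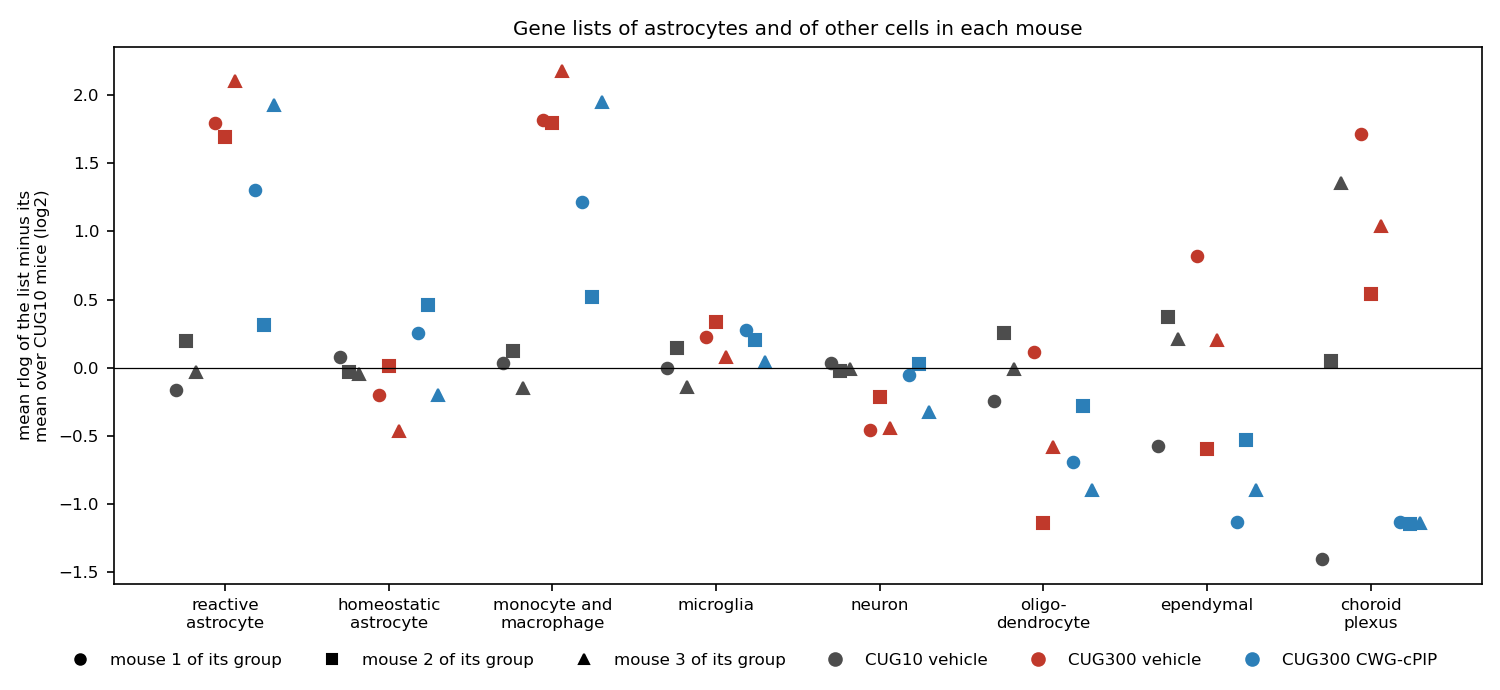
Mean rlog of 8 gene lists in each mouse, minus its mean over the CUG10 mice (vertical axis, log2); colours are groups, symbols mouse numbers. Reactive astrocyte and monocyte lists share the order of the treated mice, and the choroid plexus mean is 6.35 to 6.36 in all 3 treated mice before centring.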

How the data were processed

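Per the labels and the study's methods, the authors made the values from paired reads on the GRCm38/mm10 build, using Trim Galore 0.6.6 for trimming, STAR 2.7.9a for alignment and RSEM 1.3.3 for expression, and deposited 1 rlog value (log2 scale, DESeq2 1.36.0) per gene and mouse. The libraries were made with a directional kit, per the study's methods. Rlog options, gene annotation and strand use in counting are not given in the sources used here. Counts were not used here, so depth is unknown and no count model was fitted.

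Groups came from the labels. The 14867 of 24411 genes whose average reached log2(10) were fitted with limma 3.58.1 in R 4.3.3, with 1 mean per group over all 9 mice, a variance trend and Benjamini-Hochberg adjustment in each comparison. P-values measure the spread between these mice. The procedure was checked on simulated data. Gfap was also tested against the mean of 14 homeostatic genes by an exact permutation test (scipy 1.17.1). Coordinates come from GENCODE M21 (GRCm38) and promoter windows from RefSeq.

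Members and the 26 other gene lists were chosen with earlier results of these data known. Named genes are all members, the first 2 genes written in each list and its 2 with the largest difference, and 5 genes most like Gfap and Serpina3n; 1 gene that the rule names is not reported here. Amigo2, Slc22a17, Sgpl1, C1qa, Nes, Ltf, Otx2, Mrc1, Cd163, Lyve1 and Pf4 fall outside the rule and were named after their values were seen. Symbols turned into dates (23 of the genes tested) were kept in the fits and are not named. Alternatives covered scaling, filters, variance models, the samples fitted, a replicate block, a choroid plexus covariate, a stricter threshold and leaving out each mouse.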

Additional observations from a re-analysis of the deposited data

How the results depend on the processing

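In CUG300 vehicle against CUG10 mice 10 members and 1592 genes were called. The members called were 5 after scaling to the homeostatic astrocyte genes (288 genes), 0 with the choroid plexus covariate (1 gene) and 0 at an adjusted p under 0.01 (0 genes), while the members' median was 2.10 with that scaling, 1.85 with the covariate and 1.89 as reported, with all 10 positive in each. With the compared groups alone, 10 members and 1778 genes were called at an adjusted p under 0.05. The members' adjusted p-values of limma were then 8.8e-05 to 0.0196. Leaving out 1 mouse gave 0 to 10 members and 0 to 2490 genes. Under the other scalings, filters and variance models 9 or 10 members were called, except that a mean of log2(100) left 8 to test, all called. Median centering left 52.8% of called genes higher, against 68.8%, and the astrocyte scaling moved the median of all genes by 0.21. In CWG-cPIP against vehicle, 0 members were called under every alternative tried; 3 genes were called with the compared groups alone, and 0 to 3 with 1 mouse left out. Lcn2 ranged from −0.79 to 0.014 with 1 mouse left out, positive only without treated mouse 2, and Steap4 turned to 0.10 with the choroid plexus covariate, and the cause was not tested. In CWG-cPIP against CUG10 mice, 14 genes were called with the compared groups alone, and leaving out 1 mouse gave 0 to 8 members and 0 to 567 genes. The Gfap ratio kept its direction in all alternatives of each comparison.

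With the replicate number as a block (replicate block), 9 members and 1512 genes were called in CUG300 vehicle against CUG10 mice, all but Steap4. The labels do not say whether the numbers pair the mice. Of 9 same-numbered pairs, 3 had a correlation of deviations over 0.1, and the range was −0.50 to 0.41. With 3 mice per group, these values cannot settle that question.

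Depth is unknown, 3 mice per group limit each test, and rlog understates changes of low genes.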
